A study of Mus musculus with 4 samples.

Results

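The genes described are 8 transcription factors of blood stem cells and their lineage choices (Gfi1b, Gata3, Ikzf2, Hlx, Prox1, Klf7, Rxra and Sox17) and Bmi1, a chromatin regulator of the Polycomb group. They were chosen by name for these known roles, and all 9 were among the 4167 genes analysed, which lie on chromosome 1 and the start of chromosome 2. Long-term haematopoietic stem cells (LT-HSCs), the bone marrow cells that sustain blood formation for life, were sorted by flow cytometry from leg bones of wild-type mice (WT) and of mice lacking ATF4 (ATF4 KO, called CKO in the series' design text), a transcription factor that carries out the cell's integrated stress response. Polyadenylated RNA was sequenced in 2 libraries per genotype with a protocol derived from Smart-seq2, which amplifies very small amounts of RNA. Age, sex and strain of the mice and the way in which Atf4 was deleted are not given in the sources used here. Nor is it given whether each library came from its own animal. The p-values thus measure at most the spread between these libraries. Atf4 itself was not analysed here, so its level gives no check of the labelled genotypes.

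GFI1B and GATA3 are zinc finger proteins: GFI1B represses genes in stem cells and in the erythroid and megakaryocytic lineages, and GATA3 drives T cell development and also acts in stem cells. Ikaros family members such as IKZF2 (Helios), and homeobox proteins such as HLX and PROX1, shape lineage programmes, while RXRA is the shared partner of many nuclear receptors and SOX17 maintains fetal stem cells. BMI1 is a subunit of Polycomb repressive complex 1 (PRC1), which marks histone H2A and keeps the cell cycle inhibitor locus Cdkn2a silent, a function on which self-renewal of blood stem cells depends.

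Sequences upstream of 3 of the genes are shown because these genes differ in WT level: Gfi1b had the highest, Bmi1 a low one, and Prox1 was next to absent. Each run holds the 250 bases before a RefSeq transcript start (GRCm38.p6), read 5′ to 3′ on the strand of the gene and free of GENCODE M21 exons. They lie at chr2:28621983-28622232 (minus strand) for Gfi1b, chr2:18676768-18677017 (plus strand) for Bmi1 and chr1:190170828-190171077 (minus strand) for Prox1. Capitals mark GATAA (bound by GATA factors), AAATCA (bound by GFI1 proteins) and GGGCGG (the GC box of SP and KLF factors), searched on both strands.
Gfi1b: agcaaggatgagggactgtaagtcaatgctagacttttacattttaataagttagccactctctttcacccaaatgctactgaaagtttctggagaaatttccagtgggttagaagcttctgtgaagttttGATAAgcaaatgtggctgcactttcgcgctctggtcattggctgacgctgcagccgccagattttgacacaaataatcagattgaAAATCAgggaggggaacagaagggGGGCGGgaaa
Bmi1: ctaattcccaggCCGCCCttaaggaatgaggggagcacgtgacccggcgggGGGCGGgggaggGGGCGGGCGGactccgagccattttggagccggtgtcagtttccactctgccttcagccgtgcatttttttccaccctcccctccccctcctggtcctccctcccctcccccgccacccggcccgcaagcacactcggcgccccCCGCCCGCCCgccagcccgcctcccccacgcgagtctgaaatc
Prox1: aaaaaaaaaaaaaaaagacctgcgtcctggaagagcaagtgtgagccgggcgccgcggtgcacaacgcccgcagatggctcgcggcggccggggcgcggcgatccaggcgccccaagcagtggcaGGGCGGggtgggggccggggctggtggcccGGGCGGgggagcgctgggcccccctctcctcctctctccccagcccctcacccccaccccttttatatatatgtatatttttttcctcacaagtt
Of 32841 RefSeq windows of this length, 22.6% hold GATAA, 12.4% hold AAATCA and 32.7% hold GGGCGG. The Gfi1b run held 1 match to each of these motifs. The Bmi1 run held 6 matches to GGGCGG, some of them overlapping, and the Prox1 run held 2. The letters TGATGNAA, a motif of ATF4 with its partners, occur in 3.45% of all windows and in none of the 9 windows found for 7 of the genes, Ikzf2 and Sox17 having no entry. The Gfi1b run had 5 CpG dinucleotides, the Bmi1 run 21 and the Prox1 run 20, against a median of 6. A match to such letters is a description of the window and not a measured binding site.

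The depth of the libraries decides what can be read from the values. The deposited numbers are shrunken log2 values, from which the reads behind them could be worked out for part of the genes. The size factors, which give relative depth, were 21.7 and 17.2 for WT 1 and WT 2 and 0.0360 and 0.0372 for ATF4 KO 1 and ATF4 KO 2. The ATF4 KO libraries thus held 0.166% and 0.171% of the depth of WT 1. Of 1199 genes tested, 677 had 0 reads in both ATF4 KO libraries, which is 56.5%. Such a gene is not listed at 0: it is placed between its own mean and a fixed value of 2.36 in ATF4 KO 1 or 2.31 in ATF4 KO 2. Of the marker lists, 2 of 9 stem cell markers were among the genes analysed, Slamf1 and Cd34, at 3.76 and 9.44 in WT 1 on the log2 scale. Their summed linear level was 709 and 734 in the WT libraries and 321 and 294 in the ATF4 KO libraries. Cd34 made up nearly all of it, and its difference of -1.24 did not pass (limma adjusted p = 0.186). Slamf1 was called lower (limma adjusted p = 0.0424), with 0 reads in both ATF4 KO libraries. Of 10 T and NK cell markers 7 were present: the leukocyte gene Ptprc, and Cd247, Xcl1, Cd28, Ctla4, Icos and Zap70, which were at 1.04 (Ctla4) to 2.05 (Cd247) in WT 1 and had 0 reads in both ATF4 KO libraries. Erythroid and megakaryocytic markers were represented by Selp alone, with linear levels of 65.2 and 57.8 in WT and 28.5 and 8.66 in ATF4 KO. The summed linear level of myeloid markers (5 of 10 present) was 1950 and 1972 in the WT libraries and 20410 and 13600 in the ATF4 KO libraries. That sum was carried by Fcer1g, whose log2 values were 10.89 in WT 1 and WT 2, 14.31 in ATF4 KO 1 and 13.73 in ATF4 KO 2, a difference that did not pass (limma adjusted p = 0.0564). The myeloid list had a median difference of -0.25, and Fcgr2b was called lower. The part of these marker levels in the results was not tested.

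In WT cells Gfi1b had by far the most transcript of the members, followed by Gata3 and Hlx, then Ikzf2, Bmi1 and Klf7, with Rxra low and Prox1 and Sox17 at the limit of detection. Because longer genes collect more reads, levels were compared as normalised reads per kilobase of annotated exon. Gfi1b (chromosome 2, 28609450 to 28621982) had 39.7 in WT 1 and 39.0 in WT 2. It ranked 34 of 600 protein-coding genes with recovered WT reads, whose median was 5.03. Gata3 (chromosome 2, 9857078 to 9890034) had 11.99 and 8.13 normalised reads per kilobase, and Hlx (chromosome 1, 184727140 to 184732619) had 5.54 and 6.73. These 3 genes lay above the median, and their WT values did not overlap with each other or with those of the other members. Gata3 is also a T cell gene, and the T cell receptor component Cd247 had 0.778 and 0.503 on the same scale.

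Below the median lay Ikzf2 (chromosome 1, 69531214 to 69687245) with 3.87 and 2.38 normalised reads per kilobase. Bmi1 (chromosome 2, 18677018 to 18686629) had 2.73 and 2.26. Ikzf2 was the higher of the pair in each library, but its lower value, 2.38, fell below the higher value of Bmi1, so their order is not separated from the spread between libraries. Klf7 (chromosome 1, 64029447 to 64122282), a Krüppel-like factor, had 1.49 and 1.43 and lay below both of them in each library. An opposite-strand transcript, Gm26649, shares 39.3% of the exon bases of Klf7. The strand setting of the counting is not given in the sources used here, so reads of Klf7 and of that transcript cannot be told apart. Gata3 shares 3.90% of its exon bases with the antisense gene Gm13256, and Sox17 shares 16.9% with Gm37587, which is listed at 0 in all libraries.

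**Figure D1:**
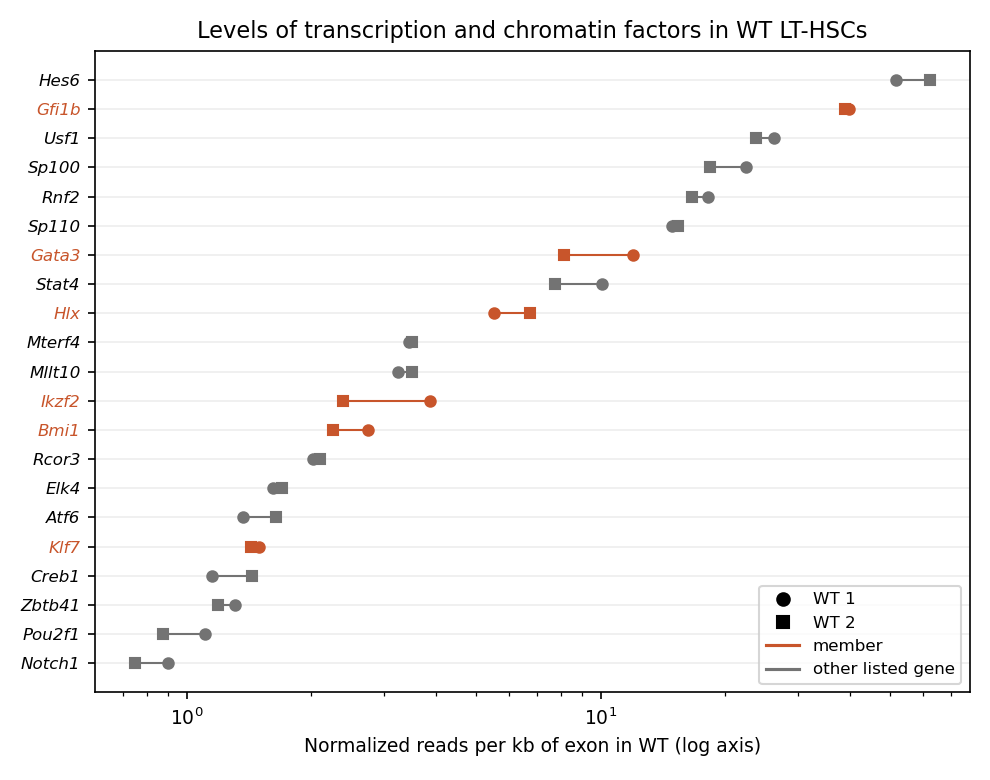
Normalised reads per kilobase of exon (log axis) in WT 1 (circles) and WT 2 (squares) for the members with recovered WT reads (orange) and for other listed transcription and chromatin factors (grey). Gfi1b, at 39.7 and 39.0, lies below Hes6 alone among the genes shown, while Bmi1 and Klf7 lie near the lower end.

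Rxra (chromosome 2, 27676440 to 27762957) was at 1.76 and 1.79 on the deposited log2 scale in WT 1 and WT 2, too low for its WT reads to be recovered. Prox1 (chromosome 1, 190118035 to 190170714) was at -0.21 in all 4 libraries, and so was Sox17 (chromosome 1, 4490931 to 4497354). Their values were those of a gene with a single read in the whole data set. The 4 values of Sox17 were shared by 108 genes and differed by at most 0.000182 from the transform of 1 read in WT 1 and 0 elsewhere. The 4 values of Prox1 were shared by 90 genes and matched 1 read in WT 2 and 0 elsewhere, with a largest difference of 9.56e-05. SOX17 and PROX1 are thus represented by 1 read each at a depth that gave 1578 reads of Gfi1b in WT 1. Rxrg, the other RXR gene in the table, was at 1.33 and 1.34 in WT, lower than Rxra in both libraries on the log2 scale.

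The WT libraries agreed closely for some members and less for others. Gfi1b had 1578 and 1224 reads in WT 1 and WT 2, a ratio of normalised reads of 1.02, and Klf7 had 264 and 199 reads, a ratio of 1.05. Gata3 had 1036 and 555 reads, a ratio of 1.47 in favour of WT 1, and Ikzf2 had 976 and 474 reads, a ratio of 1.63. Among genes within 2-fold of their levels, 96.4% of 278 had a smaller fold between the WT libraries than Gata3 and 97.9% of 281 a smaller one than Ikzf2. Hlx had 274 and 263 reads, which at the depths of the libraries made it higher in WT 2, with a ratio of 0.823. Bmi1 had 236 and 154 reads, a ratio of 1.21.

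In the ATF4 KO libraries 8 of the 9 members had 0 reads, and Ikzf2 had a single read, in ATF4 KO 1. Of the 7 members tested 6 had 0 reads in both, beside 56.5% of all genes tested. Prox1 and Sox17 were not tested, and on the wider base of all 1928 genes with values, 1399 lacked ATF4 KO reads. What the ATF4 KO libraries could have held is set by the WT reads and the depth. At unchanged expression the pair would have been expected to hold 5.26 reads of Gfi1b, 2.93 of Gata3, 2.65 of Ikzf2, 1.02 of Hlx, 0.868 of Klf7 and 0.725 of Bmi1. Among the members, only for Gfi1b did the expectation exceed 3 reads, the upper limit that a count of 0 allows. Under Poisson counting alone, that limit would put Gfi1b at least 1.75-fold lower in the ATF4 KO libraries. The exact 95% Poisson interval used for the other ratios is wider and reaches 0.701 times the expectation. This bound covers counting error only, and amplified reads without molecular identifiers are not independent molecules. Of 63 genes of similar WT level, 25.4% also had 0 reads in both ATF4 KO libraries. No change particular to Gfi1b therefore follows from the bound. The bound was lost when either ATF4 KO library was left out, the limit then being 1.12 or 1.16 times the expectation. It was also lost at the lower yield found for genes of middle WT level, which had 299 ATF4 KO reads where 824.8 were expected, or 36.2%. At that yield 1.91 reads of Gfi1b were expected. Fewer cells in a library and less RNA per cell cannot be told apart in these bulk samples.

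**Figure D2:**
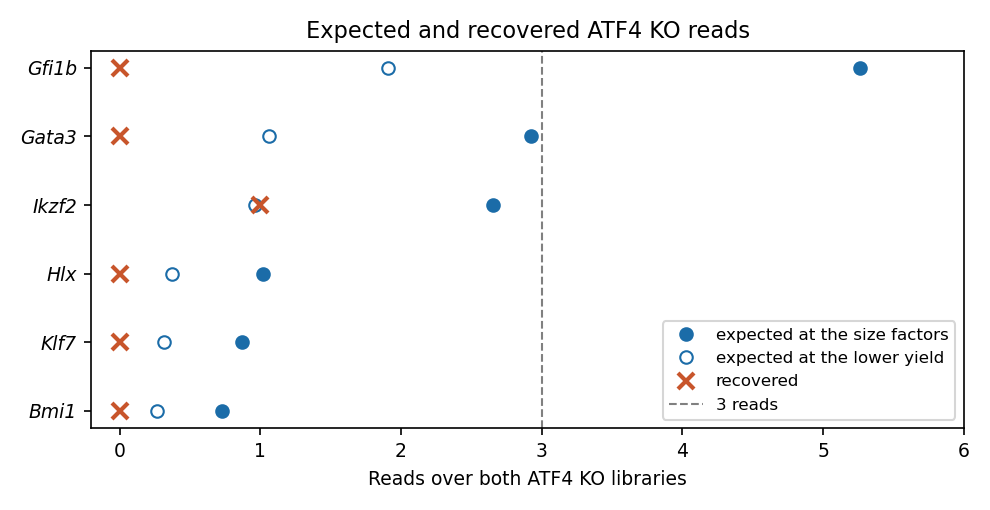
Reads expected over both ATF4 KO libraries from the WT level and the size factors (filled blue), the same at the lower yield of genes of middle WT level (open blue), and reads recovered (orange crosses), for the 6 members with recovered WT reads. The dashed line marks 3 reads, the limit that a count of 0 allows, which the expectation of Gfi1b alone passed, at 5.26.

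Other genes with the same expectation as Gfi1b show how wide the outcome was at this depth. Rnf2, the ubiquitin ligase that works with BMI1 in PRC1, had 1631 and 1174 reads in the WT libraries, nearly those of Gfi1b. With 5.25 reads expected it had 4 in ATF4 KO 1 and 1 in ATF4 KO 2, a ratio of 0.953 with an exact 95% Poisson interval of 0.309 to 2.22. Usf1, a widely expressed helix-loop-helix factor, had 1597 and 1142 WT reads and, like Gfi1b, 0 in both ATF4 KO libraries, where 5.12 were expected. Of 63 genes with a WT mean within 0.25 log2 units of that of Gfi1b, 16 had 0 reads in both ATF4 KO libraries, which is 25.4%. For Gata3 this was 29 of 77 genes, or 37.7%, and for Bmi1 41 of 50 genes, or 82.0%.

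For Ikzf2 the single ATF4 KO read gave a ratio of 0.377 to the 2.65 expected, with an exact 95% Poisson interval of 0.00954 to 2.10. That interval holds both a loss and a gain. Bmi1, Klf7 and Hlx had expectations near 1 read or under, so a lower level of these genes in ATF4 KO cells was not detectable at this depth. For Gata3 the limit of 3 reads was 1.03 times the expectation, and no bound on a fold change follows.

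On the deposited log2 scale 7 members passed the filter on low values and were tested with limma. Gfi1b, Gata3, Hlx, Klf7 and Bmi1 were called lower, Rxra was called higher, and Ikzf2 did not pass. Of all 1199 genes tested, 22.4% were called lower and 24.6% higher. The median difference was -0.90 over the 7 members and 0.02 over all genes tested. These calls are to be read with the reads above, since all 6 members that were called had 0 reads in both ATF4 KO libraries. For such a gene the distance between its ATF4 KO values follows from the fixed values given above. Its p-value thus does not measure a spread between the ATF4 KO libraries.

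The value of Gfi1b was 6.02 in WT 1, 5.997 in WT 2, 3.01 in ATF4 KO 1 and 2.98 in ATF4 KO 2. Its groups did not overlap, with both ATF4 KO values about 3 log2 units below WT. Of all genes tested, 40.7% had both ATF4 KO values below both WT values. The difference was -3.01 ± 0.18 (SE, n = 2 libraries per genotype, limma adjusted p = 0.00286). Both ATF4 KO values stand for 0 reads, as do those of the 16 genes of like WT level without ATF4 KO reads, whose differences ran from -3.21 to -2.82. All 16 were called lower. The difference of Gfi1b thus lay inside the range that any gene of its WT level takes when no read is seen.

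Gata3 had 5.37 in WT 1 and 4.88 in WT 2, against 2.90 in ATF4 KO 1 and 2.87 in ATF4 KO 2. Its groups did not overlap either. Both its ATF4 KO values stand for 0 reads, so how close they lie does not show agreement between libraries. The difference was -2.24 ± 0.23 (limma adjusted p = 0.0071). The 29 genes of like level without ATF4 KO reads had differences of -2.45 to -2.02, and all 29 were called lower.

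Ikzf2 was at 5.37 and 4.75 in WT, at 4.72 in ATF4 KO 1 and at 2.99 in ATF4 KO 2. The ATF4 KO library with the read reached almost to WT 2, and the one without it lay near the other members with 0 reads, so 1 read spans most of the distance between the genotypes. Both ATF4 KO values were below both WT values, as in 40.7% of all genes tested. The difference was -1.20 ± 0.78 (limma adjusted p = 0.301). Without ATF4 KO 1 it was -2.07 (limma adjusted p = 0.0156), so this library decided the call.

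Hlx, a homeobox factor of haematopoietic and lymphoid cells, had 3.50 in WT 1 and 3.69 in WT 2, against 2.71 in ATF4 KO 1 and 2.68 in ATF4 KO 2, a difference of -0.90 ± 0.09 (limma adjusted p = 0.00736). For Klf7 the WT values were 3.39 and 3.35 and the ATF4 KO values 2.68 and 2.65, a difference of -0.70 ± 0.04 (limma adjusted p = 0.00281). For Bmi1 the WT values were 3.20 and 3.04 and the ATF4 KO values 2.63 and 2.60, a difference of -0.50 ± 0.07 (limma adjusted p = 0.018). In these 3 genes the ATF4 KO values were all between 2.60 and 2.71, and the size of the difference followed the WT level. The call of Bmi1 was lost without ATF4 KO 1 (limma adjusted p = 0.0512) and without ATF4 KO 2 (limma adjusted p = 0.0541). When limma's voom was run on the recovered reads, the difference of Bmi1 was 0.47 (adjusted p = 0.0955) and that of Klf7 0.20 (adjusted p = 0.283), opposite in sign to the deposited scale, and that of Hlx was -0.03 (adjusted p = 0.908). On the recovered reads voom gave -2.40 for Gfi1b (adjusted p = 0.0108) and -1.52 for Gata3 (adjusted p = 0.0219). As none of these 5 genes had an ATF4 KO read, the ATF4 KO value of each in voom is set by the offset it adds and the depth, so these differences too follow the WT level and give no bound.

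Rxra had 1.76 in WT 1 and 1.79 in WT 2, against 1.87 in ATF4 KO 1 and 1.86 in ATF4 KO 2, higher by 0.09 ± 0.01 (limma adjusted p = 0.0182). Its ATF4 KO values lay above its WT values although no ATF4 KO read was seen. The same held for its neighbours in level: 113 of 125 genes of like WT level had 0 reads in both ATF4 KO libraries, their differences ran from 0.06 to 0.10, and 88 were called higher. The call of Rxra was lost without ATF4 KO 1 (limma adjusted p = 0.0542). Prox1 and Sox17 did not reach the filter and were not tested.

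**Figure D3:**
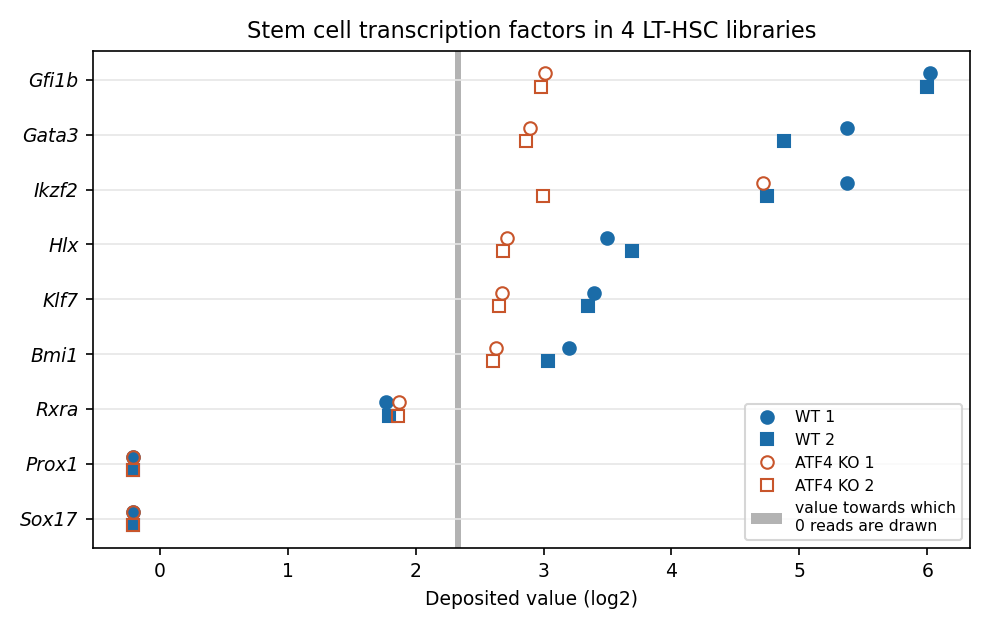
Deposited log2 values of the 9 members in WT 1, WT 2 (blue) and ATF4 KO 1, ATF4 KO 2 (orange), with a grey band from 2.31 to 2.36, the value towards which a library with 0 reads is drawn. WT values run from -0.21 to 6.02, while every ATF4 KO value apart from that of Ikzf2 in ATF4 KO 1 is at or below 3.01.

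**Figure D4:**
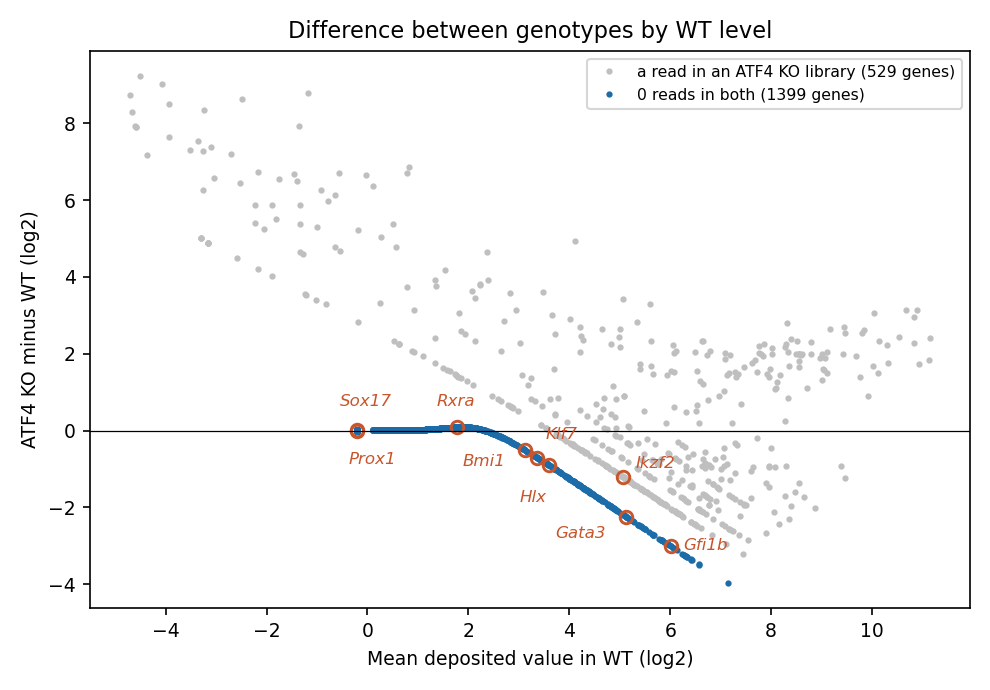
Difference between genotypes (ATF4 KO minus WT, log2) against the mean WT value for all 1928 genes with values, those with 0 reads in both ATF4 KO libraries in blue and the others in grey. The members with 0 reads (orange rings) lie on the blue line, from -3.01 for Gfi1b to 0.09 for Rxra, and Ikzf2 lies on the line of genes with 1 read.

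The genes with the most similar values over the 4 libraries, by Euclidean distance on the log2 scale among 900 genes, were Usf1 and Dnpep for Gfi1b (0.0956 and 0.0969), Inpp1 and Prpf18 for Gata3 (0.112 and 0.188), and Traf5 and B3gnt7 for Bmi1 (0.0155 and 0.0400). Zer1 and Tbc1d13 were nearest to Klf7 (0.00461 and 0.0127), Phf3 and Tmem141 to Hlx (0.0234 and 0.124), and Zbtb37 and Traf3ip1 to Rxra (0.0123 and 0.0134). Each of these 12 genes lacked reads in both ATF4 KO libraries, so the likeness rests on the WT level. Ttf1 and Bag2 were nearest to Ikzf2 (0.505 and 0.514), and each of them also had a single read in ATF4 KO 1.

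Few relatives of the members were among the genes analysed. Of 31 listed Polycomb genes 3 were present: Bmi1, called lower, Sfmbt2, called higher with 0 ATF4 KO reads, and Rnf2, which was at 6.21, 6.09, 6.70 and 5.01 in WT 1, WT 2, ATF4 KO 1 and ATF4 KO 2 and did not pass (difference -0.29 ± 0.78, limma adjusted p = 0.76). Of 9 listed GFI1 proteins and partners, Rcor3, a corepressor of the LSD1 complex recruited by GFI1 proteins, had 596 and 489 WT reads and 1 and 0 ATF4 KO reads, with 2.05 expected. Ikzf2, Klf7 and Gata3 were the lone genes of their families present, and of 17 core stem cell factors such as Runx1 and Tal1 none was analysed here.

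In all, 40 listed relatives and other transcription factors of these chromosomes were present beside the members, and 27 were tested. Of these, 7 were called lower and 6 higher, beside 22.4% lower and 24.6% higher of all genes tested. Their median difference was -0.29. Of the 27, 14 had 0 reads in both ATF4 KO libraries, beside 56.5% of all genes tested. The 13 called genes all lacked reads in either ATF4 KO library. The calls among the 27 thus came from genes without ATF4 KO reads, as for the members. Among 17 with recovered reads, 10 had at least 1 ATF4 KO read. The interval of their ratio to the expectation lay below 1 for 3 of the 10: Aldh9a1 (0.266, interval 0.0550 to 0.779), Hes6 (0.265, 0.0322 to 0.959) and Sp100 (0.355, 0.0967 to 0.908). It lay above 1 for 0 of them, and at the lower yield for 0 in either direction.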

How the data were processed

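The deposited table holds log2 values, which the authors made from RNA-seq reads of 2 WT and 2 ATF4 KO libraries. HISAT2 2.2.1, featureCounts, DESeq2 and GRCm38 are named, without roles, per the submitters' processing notes. The values had the form of a regularized logarithm, which is inferred from the values and is not stated in the sources used here. Inverting it gave 0 reads in both ATF4 KO libraries for 1399 genes and WT reads for 656. The ATF4 KO size factors followed from the values, whereas the ridge weight (0.165) and WT size factors were set so that reads came out whole, so wholeness is no check of them, and WT reads are approximate. On simulated data for 656 genes, ATF4 KO reads came out exact for 100% of 545 recovered genes, and WT reads within 1% for 85.7%.

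Genes at 1 or more in at least 2 libraries (1199) were tested with limma 3.58.1 (R 4.3.3; trend, robust, Benjamini-Hochberg over all 1199, threshold 0.05) on the log2 values, with no pseudocount. An exact permutation test of 2 against 2 cannot go below 0.333 and was not used. WT reads were divided by size factors and by GENCODE M21 exon length. Intervals are exact Poisson (95%, scipy 1.17.1) and cover counting error only. Of 4167 complete lines 2239 were 0 throughout, and 1 incomplete line was left out. The genes named are the members, the 2 nearest genes to each by Euclidean distance over the 4 libraries, and those of fixed lists of relatives and cell markers. Members and lists were chosen with earlier results of these data known. Some listed genes are not reported here. Promoter windows are from RefSeq (GRCm38.p6). Alternatives were other filters and limma settings, a replicate block, leaving out each library, and voom on recovered reads.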

Additional observations from a re-analysis of the deposited data

How the results depend on the processing

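Of 68 alternatives to the members' differences, 59 kept direction and side of the threshold. Another 6 kept direction but lost the call, 1 gained it, and 2 turned direction and also lost the call. For the called members every limma setting reuses values that stand for 0 ATF4 KO reads, so a kept call adds no support. The turned values, of Bmi1 (0.47) and Klf7 (0.20), came from voom on recovered reads, which was also the setting that left 2 rather than 5 members lower. The count of members higher, 1, became 3 with no filter, and 0 with no trend. It was also 0 with a lowest value of 3 and with voom, where Rxra could not enter, its values being too low and its reads not recovered; leaving out a library gave 0 to 1, the 0 being without ATF4 KO 1. The alternatives to the counts of members higher, and voom for the count of members lower, were chosen after seeing the data. Over all genes, 295 were higher; this was 1036 with no filter, 15 with a lowest value of 3 and 28 with no trend, while leaving out a library gave 332 to 441. The 268 genes lower became 302 to 452 when a library was left out, 443 without ATF4 KO 1 and 452 without ATF4 KO 2. The cause of these shifts was not tested. With the replicate block 277 genes were higher and 233 lower. Over the 1199 genes tested, the deviations of libraries with the same number had a correlation of -0.08. In 677 of these genes both ATF4 KO values stand for 0 reads, so their distance is set by the transform. The correlation therefore cannot show whether libraries with the same number belong together. Where a library was left out, the lone library of that genotype was assumed to vary like the others. Of 30 alternatives to the ratios of ATF4 KO to expected reads, 17 moved the value. Depth limits every statement on the ATF4 KO libraries: of 660 genes with a WT mean above 3, 244 (37.0%) had 0 reads in both.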

Other observations

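Among the listed transcription factors, Lhx4 and Sp140 had high values in an ATF4 KO library that the members did not show. Lhx4, a LIM homeobox factor, was at -2.86 and -3.62 in WT 1 and WT 2, at 1.86 in ATF4 KO 1 and at 8.33 in ATF4 KO 2. Sp140, a chromatin reader of immune cells, was at 8.27 in both WT libraries, at 12.66 in ATF4 KO 1 and at 8.21 in ATF4 KO 2. Lhx4 was above WT in both ATF4 KO libraries, and Sp140 in ATF4 KO 1 alone. Neither passed limma's test (adjusted p of 0.187 for Lhx4 and 0.42 for Sp140), and their reads were not recovered. These genes were picked after their values were seen.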
